A study of Mus musculus with 12 samples.

Results

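The genes described here are 35 surface, matrix and associated genes of oligodendrocyte precursors and early committed oligodendrocytes, with the transcription factors of the lineage left out. They were taken by name, with earlier results of these data known, and matched by symbol to the 49671 Ensembl genes of the count table. Each of the 35 matched 1 protein-coding gene, and all 35 passed the filter on low counts, which 17812 genes passed. Total RNA was sequenced from 12 fixed and paraffin-embedded mouse brain samples in 4 groups of 3. The tumour groups are named IDH1_R132H, IDH1WT and PDGFA in the labels, after the mutant and the wild-type form of isocitrate dehydrogenase and after the platelet-derived growth factor A chain. The label of every sample gives an N::TVA cross with homozygous floxed alleles that include Cdkn2a and Atrx. A further floxed allele listed in the labels is not reported here. The normal brains came from mice of that cross recorded as TVA negative, with no tumour genotype. TVA is the avian receptor through which RCAS viruses enter mouse cells. The labels do not give the promoter that drives it, the source of any Cre, the age of the mice, or whether PDGFA was also delivered to the IDH1 tumours. Nor do they say that samples came from different animals, so the p-values rest on the spread between samples, which may be technical in part.

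Oligodendrocyte precursors are the dividing glia of the adult brain that give rise to myelinating oligodendrocytes. They carry the proteoglycan NG2 and the PDGF receptor alpha on their surface, and they surround themselves with chondroitin sulphate proteoglycans and tenascin. On leaving the cell cycle they pass through a brief committed stage marked by Gpr17, Bmp4, Enpp6 and Bcas1, and then make myelin. Human proneural gliomas and gliomas with IDH mutations are known to express many genes of the precursor stage. Several of the genes below are also made by other brain cells: Bcan, Ncan, Ptprz1 and Luzp2 by astrocytes, Dscam and Fyn by neurons, Cspg4 by pericytes, and Tmem100 and Lims2 by blood vessels.

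Levels are given as CPM, read counts scaled to a common library size adjusted by trimmed mean of M-values (TMM) factors. Where 3 values are given for a group they are those of its libraries 1, 2 and 3, numbers that pair nothing between groups. The library totals ran between 6507923 and 14277395 counts. In IDH1_R132H tumour 3 the ribosomal RNA-like locus Gm42418 took 35.6% of the counts, against 0.218% to 0.855% in the other libraries, and its TMM factor was 0.506 against 0.886 to 1.18. Normal brains 1 and 2 resembled each other closely, with a chi-square per gene of 2.59 where the other 2 pairs of normal brains had 28.9 and 30. Pdgfra, the receptor that defines the precursor, stood at 81.2 to 1560 CPM in the tumours, against 46.9 to 49.8 CPM in normal brains. Idh1 stood at 22.2 to 70.7 CPM and Pdgfa at 40.4 to 96.7 CPM in the tumours, against 22.5 to 27 and 28.1 to 30.5 CPM in normal brains. Atrx stood at 212 to 299 CPM in tumours and 262 to 336 CPM in normal brains, and Cdkn2a had at most 14 reads in a tumour and 1 in a normal brain. All groups carry the floxed alleles and the counts are for whole genes, so these levels do not check the deletion. Whole-gene counts do not separate a delivered Idh1 or Pdgfa from the mouse gene, so those levels do not check the tumour labels. Brain tissue was evident in every library, with Rbfox3, a neuronal RNA-binding protein, at 49.1 to 177 CPM in tumours and at 167 to 176 CPM in normal brains.

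The tumours (each group weighted equally) were first set against normal brain. Of the 35 precursor genes 24 rose and 0 fell at an adjusted p under 0.05 in edgeR's quasi-likelihood test, while 5.22% of all tested genes passed, 3.71% higher and 1.5% lower. All 35 had a positive log2 fold change, as did 48.7% of all tested genes. The median was 1.83, against -0.01 over all tested genes. Differences of at least 4-fold were found in 15 of the 35 genes, against 2.19% of all tested genes that were higher by as much. The steepest were the spindle orientation gene Sapcd2 at 16-fold and Cspg4, the NG2 core protein, at 14.7-fold. In 19 genes every tumour lay above every normal brain, as in 4.67% of all tested genes. The 8 tumours other than PDGFA tumour 1 did so in 30 genes, as in 10.5% of all tested genes. PDGFA tumour 1 was the lowest tumour in 29 of the 35 genes, against 23.3% of all tested genes, so leaving it out favours the 35. In 0 genes did every tumour lie below every normal brain, as 2.84% of all tested genes did. These calls rest on all 3 normal brains: without any 1 of them 0 of the 35 genes passed. Of all tested genes 0 passed without normal brain 1, 1 without normal brain 2 and 3 without normal brain 3. Each time 30 of the 35 had an unadjusted p under 0.05, as had 2741 to 3221 of all tested genes. All 35 log2 fold changes stayed positive in these fits. The calls numbered 16 to 30 without 1 tumour, where 367 to 2536 of all tested genes passed. Of the 24 genes 16 passed in every fit that left out 1 tumour. The 8 that did not were Matn4, Tnr, Ugdh, Tmem100, Serpine2, Gpr17, Bcas1 and Lims2. With libraries scaled by their totals alone 2 of the 35 passed, Fyn and Marcksl1, as did 273 of the 17812 tested genes. All 35 log2 fold changes were still positive. In bulk RNA, more cells of a type and more RNA per cell cannot be told apart.

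**Figure D1:**
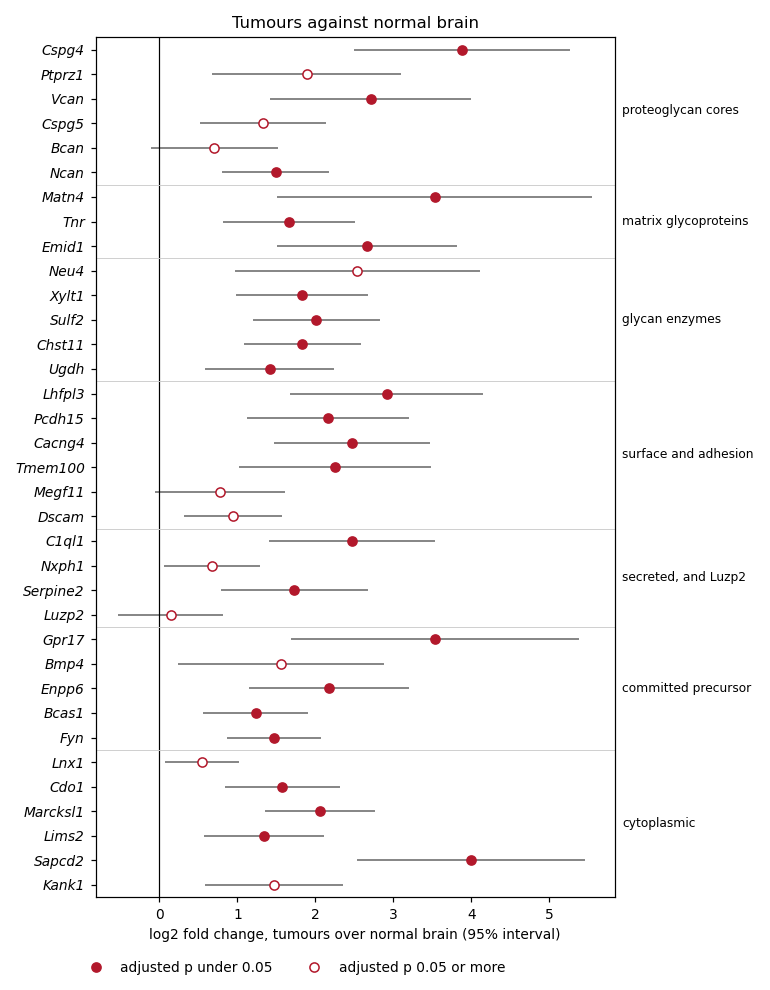
Log2 fold change of tumours over normal brain for the 35 genes (x axis), in groups by role, with points at the edgeR estimate and bars for the 95% interval. Filled points mark the 24 genes that passed and open points the 11 that did not; every point lies to the right of 0, and Sapcd2 and Cspg4 lie furthest right.

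Promoters of the genes with the steepest and the flattest change are shown because they let the start regions of genes at both ends of the range be compared. RefSeq promoters on GRCm38.p6, running 250 bases before to 50 bases after the start, were found for 25 of the 35 genes. Among genes with 1 listed promoter, Sapcd2 and Cspg4 had the largest log2 fold changes and Lnx1 and Luzp2 the smallest. The Sapcd2 and Luzp2 windows end before the starts that GENCODE M21 gives these genes, 25372321 and 54835498, so the annotations differ there. Capitals mark matches on either strand to the E-box CAGCTG, the SOX-like words ACAAAG and AACAAT, the TATA word TATAAA and the GC box GGGCGG.

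Sapcd2, chr2:25371785-25372084 (+ strand): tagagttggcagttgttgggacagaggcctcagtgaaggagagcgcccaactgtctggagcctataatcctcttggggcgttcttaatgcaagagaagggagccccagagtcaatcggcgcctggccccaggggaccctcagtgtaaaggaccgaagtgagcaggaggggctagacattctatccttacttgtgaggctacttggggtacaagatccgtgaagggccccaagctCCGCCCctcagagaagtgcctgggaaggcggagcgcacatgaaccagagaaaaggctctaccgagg
Cspg4, chr9:56864854-56865153 (+ strand): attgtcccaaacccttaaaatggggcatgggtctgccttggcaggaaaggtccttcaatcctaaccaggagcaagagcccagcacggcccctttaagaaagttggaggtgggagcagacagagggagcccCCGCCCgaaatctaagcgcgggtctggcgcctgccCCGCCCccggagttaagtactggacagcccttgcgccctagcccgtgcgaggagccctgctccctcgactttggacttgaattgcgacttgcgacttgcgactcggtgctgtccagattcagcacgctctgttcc
Lnx1, chr5:74702854-74703153 (- strand): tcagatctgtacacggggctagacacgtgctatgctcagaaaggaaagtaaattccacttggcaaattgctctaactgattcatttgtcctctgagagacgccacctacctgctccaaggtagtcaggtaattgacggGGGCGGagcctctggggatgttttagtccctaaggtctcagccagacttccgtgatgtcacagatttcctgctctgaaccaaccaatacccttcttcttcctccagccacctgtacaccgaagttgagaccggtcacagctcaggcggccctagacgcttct
Luzp2, chr7:54834995-54835294 (+ strand): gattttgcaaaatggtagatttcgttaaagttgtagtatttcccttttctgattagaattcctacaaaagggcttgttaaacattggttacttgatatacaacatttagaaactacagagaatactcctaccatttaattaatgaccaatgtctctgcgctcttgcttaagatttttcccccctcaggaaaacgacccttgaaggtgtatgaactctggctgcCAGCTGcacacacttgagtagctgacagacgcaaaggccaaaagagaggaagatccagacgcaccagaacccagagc

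The Sapcd2, Cspg4 and Lnx1 windows each hold a GC box, Cspg4 at more than 1 place, and the Luzp2 window holds an E-box only. Over the 28 listed promoters of the 25 genes, a GC box was present in 19, against 35.7% of all 32851 promoters of the same length. The E-box was present in 8 of the 28 (16.3% of all promoters), ACAAAG in 4 (18.7%), AACAAT in 1 (10.7%) and TATAAA in 3 (13.6%). The median number of CpG dinucleotides was 14.5 in the promoters of these genes and 7 in all promoters. A match of letters does not show that a factor binds there, and its part in the changes was not tested.

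Of 6 genes of proteoglycan core proteins 3 rose, Cspg4, Vcan and Ncan, and the median log2 fold change was 1.69. Cspg4 (chromosome 9, 56865033 to 56899870) stood at 488, 600 and 250 CPM in IDH1_R132H tumours, 192, 537 and 266 CPM in IDH1WT tumours, 51.1, 104 and 390 in PDGFA tumours and 20.8, 20.1 and 20.1 in normal brains. Each tumour lay above the normal brains, but PDGFA tumour 1 was about an order of magnitude below the highest tumour. The log2 fold change of Cspg4 was 3.88 (SE 0.63, edgeR adjusted p = 0.0151). Ncan (chromosome 8, 70093085 to 70120873), which encodes neurocan, a hyaluronan-binding lectican, stood at 738, 990 and 585 CPM in IDH1_R132H tumours, 355, 531 and 464 CPM in IDH1WT tumours, 225, 330 and 702 in PDGFA tumours and 189, 174 and 197 in normal brains. Tumours and normal brains did not overlap for Ncan, and the log2 fold change was 1.49 (SE 0.31, edgeR adjusted p = 0.0238). Vcan, the gene of versican, another lectican, had 73.4 to 663 CPM in tumours (median 317), against 38.2 to 50.6 CPM in normal brains (log2 fold change 2.71, SE 0.59, edgeR adjusted p = 0.0263). Its low tumours were PDGFA tumours 1 and 2, which still exceeded normal brain.

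The other 3 cores did not pass. Bcan encodes brevican, the lectican most typical of the adult brain, and had 55.2 to 329 CPM in tumours (median 186), against 111 to 128 CPM in normal brains (log2 fold change 0.7, SE 0.37, edgeR adjusted p = 0.273). Ptprz1, a receptor phosphatase that carries chondroitin sulphate, had 137 to 1630 CPM in tumours (median 1050), against 257 to 282 CPM in normal brains (log2 fold change 1.89, SE 0.55, edgeR adjusted p = 0.0636). Cspg5, the gene of neuroglycan C, had 105 to 622 CPM in tumours (median 303), against 124 to 136 CPM in normal brains (log2 fold change 1.33, SE 0.37, edgeR adjusted p = 0.0556). In all 3 genes PDGFA tumour 1 lay below the normal brains and the other 8 tumours above them. Ptprz1 passed without PDGFA tumour 1 (edgeR adjusted p = 0.00508) and also without PDGFA tumour 3 (0.0279). Cspg5 passed without PDGFA tumour 1 (edgeR adjusted p = 0.0134), PDGFA tumour 3 (0.0383), IDH1_R132H tumour 3 (0.0417) or IDH1WT tumour 1 (0.0479). Bcan passed in 0 of the 12 fits that left out 1 library.

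The lecticans can be compared with each other per kilobase of exon. In tumours the mean was 76 CPM per kb for Ncan, 48.8 for Bcan and 21.4 for Vcan. In normal brains it was 26, 29.4 and 3.01 CPM per kb in the same order of genes, so that Bcan stood first there and Ncan first in tumours. The tumour means cover a wide range, with 4.4-fold for Ncan, 5.96-fold for Bcan and 9.03-fold for Vcan between the highest and the lowest tumour. Over the 35 genes the mean level per length of all tumours ran from 2.48 CPM per kb for Bmp4 to 76 for Ncan. The highest mean was that of Tnr in IDH1_R132H tumours (110 CPM per kb, with Ncan at 107), Ptprz1 in IDH1WT tumours (77.1, with Ncan at 62.5) and Ncan in PDGFA tumours (58.2). In normal brain it ran from 0.366 for Sapcd2 to 31.3 for Luzp2. With the longest transcript in place of all annotated exons, Ptprz1 moved to 129 CPM per kb and Serpine2 to 89.3 in tumours.

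**Figure D2:**
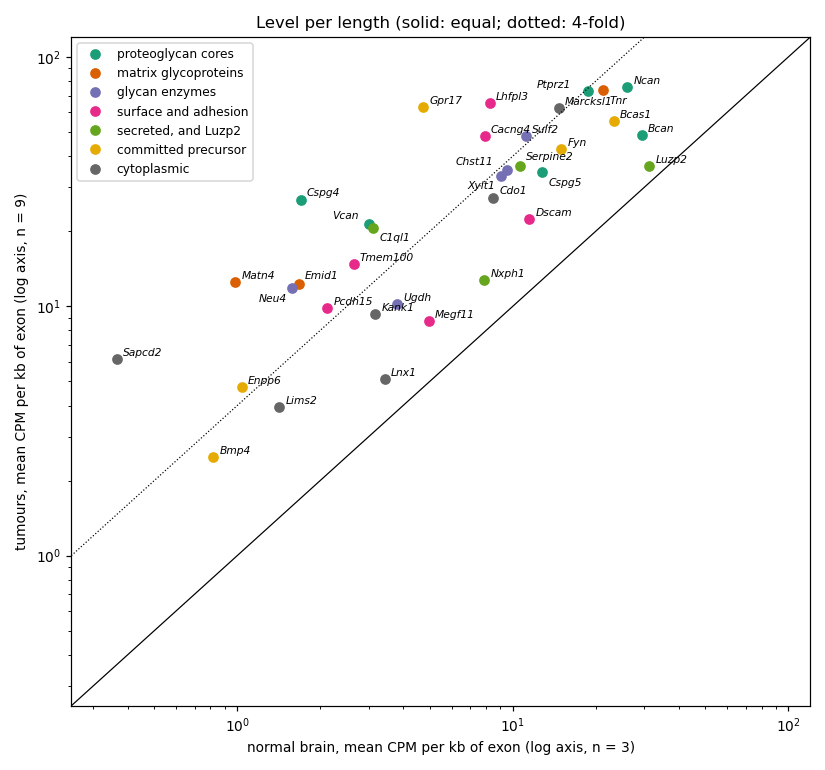
Mean level in tumours (y axis, n = 9) against mean level in normal brain (x axis, n = 3), both in CPM per kb of exon on log axes, for the 35 genes coloured by role. All points lie above the line of equality, and Sapcd2, Cspg4, Gpr17 and Matn4 lie furthest above the dotted 4-fold line, while Luzp2 and Bcan lie close to equality.

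All 3 matrix glycoprotein genes rose, with a median log2 fold change of 2.66, although Matn4 passed in only 2 and Tnr in 7 of the 12 fits that left out 1 library. Emid1 (chromosome 11, 5106265 to 5152257), which encodes a matrix protein with an EMI domain, stood at 84.2, 78.6 and 24.5 CPM in IDH1_R132H tumours, 27.9, 25.5 and 25.5 CPM in IDH1WT tumours, 7.04, 9.95 and 35.6 in PDGFA tumours and 4.73, 3.95 and 5.78 in normal brains. The tumours lay above the normal brains throughout, with IDH1_R132H tumours 1 and 2 the highest, and the log2 fold change was 2.66 (SE 0.53, edgeR adjusted p = 0.0205). Matn4, the gene of the adaptor protein matrilin 4, had 3.58 to 133 CPM in tumours (median 53), against 2.89 to 6.37 CPM in normal brains (log2 fold change 3.53, SE 0.92, edgeR adjusted p = 0.0488). Tnr, the gene of tenascin R, which binds lecticans, had 235 to 1760 CPM in tumours (median 856), against 249 to 289 CPM in normal brains (log2 fold change 1.66, SE 0.39, edgeR adjusted p = 0.0325). For Matn4 the lowest tumour, PDGFA 1, lay within the range of the normal brains, and for Tnr it lay just below it.

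Among 5 enzymes that build or trim glycan chains 4 rose, with a median log2 fold change of 1.84. Sulf2 (chromosome 2, 166073089 to 166155663), an extracellular enzyme that removes sulphate from heparan sulphate, stood at 421, 459 and 264 CPM in IDH1_R132H tumours, 178, 456 and 282 CPM in IDH1WT tumours, 98.4, 107 and 268 in PDGFA tumours and 62.8, 62 and 71.7 in normal brains. Its log2 fold change was 2.01 (SE 0.37, edgeR adjusted p = 0.0173). Chst11 (chromosome 10, 82985498 to 83195900), a sulphotransferase of chondroitin chains, stood at 283, 271 and 211 CPM in IDH1_R132H tumours, 134, 265 and 172 CPM in IDH1WT tumours, 79.3, 90.5 and 244 in PDGFA tumours and 53.9, 53.1 and 51.4 in normal brains. For both genes every tumour exceeded every normal brain, and PDGFA tumours 1 and 2 were the lowest tumours. The log2 fold change of Chst11 was 1.84 (SE 0.34, edgeR adjusted p = 0.0173). Xylt1 (chromosome 7, 117380979 to 117673580), which adds the first sugar of the chain to the core protein, stood at 468, 484 and 369 CPM in IDH1_R132H tumours, 218, 455 and 250 CPM in IDH1WT tumours, 95.9, 160 and 401 in PDGFA tumours and 90.5, 88.8 and 82.4 in normal brains. For Xylt1 the log2 fold change was 1.83 (SE 0.38, edgeR adjusted p = 0.0241), and PDGFA tumour 1 was only slightly above the normal brains. Ugdh, which makes the UDP-glucuronic acid used in the chains, had 27.1 to 113 CPM in tumours (median 65.4), against 23.7 to 26.9 CPM in normal brains (log2 fold change 1.41, SE 0.38, edgeR adjusted p = 0.0494). Neu4, a sialidase, had the widest range among tumours, 59.4-fold, with 2.57 to 153 CPM in tumours (median 31.9), against 5.89 to 8.12 CPM in normal brains, and did not pass (log2 fold change 2.54, SE 0.72, edgeR adjusted p = 0.0585). The lowest Neu4 value was that of PDGFA tumour 1, under all normal brains, and the highest that of IDH1_R132H tumour 2.

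The genes of chondroitin sulphate synthesis outside the 35 were examined as a list of 25, of which 24 were tested. In that list 3 rose, 1 fell and the median log2 fold change was 0.02. The sulphotransferases Chst3 (2.35, SE 0.53, edgeR adjusted p = 0.0294) and Chst7 (2.86, SE 0.65, 0.0295) rose, as did Papss1 (0.89, SE 0.21, 0.0317), which makes the sulphate donor. The gene that fell was Chsy3 (-0.79, SE 0.19, edgeR adjusted p = 0.0377). The summed level of the list was 627 to 893 CPM in tumours and 710 to 779 CPM in normal brains, so the groups overlapped. Chst13 was at 0 in at least 1 library of every group.

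In a list of 18 genes of hyaluronan and matrix partners 1 of 17 tested genes rose and 0 fell, with a median log2 fold change of 0.42. The one that rose was Adamts9, a protease that cleaves lecticans (1.74, SE 0.4, edgeR adjusted p = 0.0306). Cd44, a hyaluronan receptor, had a mean of 35.3 CPM in tumours and 8.28 CPM in normal brains (adjusted p = 0.059), and the protease gene Adamts1 had 32.2 and 16.1 CPM (0.0623). Of 19 ligands and binding partners of the 35 proteins 2 rose and 0 fell (median log2 fold change 0.04). They were the plasminogen activator Plat (0.91, SE 0.18, edgeR adjusted p = 0.0191), which Serpine2 inhibits, and the integrin subunit Itgb1 (1.44, SE 0.33, 0.0295). Ptn, the pleiotrophin gene, whose product binds Ptprz1, had 175 CPM in tumours and 111 CPM in normal brains (0.0585).

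Of 6 surface and adhesion genes 4 rose, with a median log2 fold change of 2.2. Cacng4 (chromosome 11, 107732357 to 107794557), an auxiliary subunit of AMPA receptors, stood at 270, 337 and 172 CPM in IDH1_R132H tumours, 96.9, 273 and 142 CPM in IDH1WT tumours, 43.5, 55.7 and 159 in PDGFA tumours and 35.1, 25.6 and 24.2 in normal brains. Its log2 fold change was 2.47 (SE 0.45, edgeR adjusted p = 0.0173). Lhfpl3 (chromosome 5, 22746059 to 23275597), a tetraspan membrane protein, stood at 271, 363 and 175 CPM in IDH1_R132H tumours, 143, 416 and 154 CPM in IDH1WT tumours, 41.6, 75.6 and 255 in PDGFA tumours and 22.9, 27 and 29.6 in normal brains. Cacng4 and Lhfpl3 did not overlap between tumours and normal brains. The log2 fold change of Lhfpl3 was 2.91 (SE 0.57, edgeR adjusted p = 0.0192), and 17.65% of its exon bases overlap the antisense gene A930003O13Rik, whose reads cannot be told apart without a stated strand setting. Pcdh15, a protocadherin known from the tip links of hair cells, had 98.2 to 405 CPM in tumours (median 199), against 44.5 to 55.1 CPM in normal brains (log2 fold change 2.16, SE 0.47, edgeR adjusted p = 0.0273). Tmem100, a membrane protein of the BMP pathway in endothelium, had 2.12 to 53.1 CPM in tumours (median 18.4), against 4.27 to 5.08 CPM in normal brains (log2 fold change 2.25, SE 0.56, edgeR adjusted p = 0.0404). Dscam, an immunoglobulin adhesion molecule of neurons, had 117 to 273 CPM in tumours (median 165), against 94.1 to 105 CPM in normal brains and Megf11, a receptor with EGF repeats, had 19.2 to 154 CPM in tumours (median 92.1), against 48.6 to 59.4 CPM in normal brains. Neither passed, with edgeR adjusted p = 0.0676 for Dscam and 0.241 for Megf11. Megf11 was lowest in PDGFA tumour 2, at 19.2 CPM, and stood at 94.9 CPM in PDGFA tumour 1.

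Among 4 genes grouped as secreted, Luzp2 included, 2 rose, with a median log2 fold change of 1.2. C1ql1 (chromosome 11, 102939264 to 102946688), a ligand of the adhesion receptor Adgrb3, stood at 42.9, 75.3 and 23.5 CPM in IDH1_R132H tumours, 19.3, 57.9 and 24.3 CPM in IDH1WT tumours, 5.03, 9.45 and 16.3 in PDGFA tumours and 4.73, 4.28 and 4.73 in normal brains. The lowest tumour, PDGFA 1, was just above the highest normal brain, and the log2 fold change was 2.47 (SE 0.48, edgeR adjusted p = 0.0194). Serpine2, which encodes the protease inhibitor nexin 1, had 61.4 to 493 CPM in tumours (median 326), against 80.5 to 97.4 CPM in normal brains (log2 fold change 1.73, SE 0.43, edgeR adjusted p = 0.0396). Unlike most of these genes, Serpine2 was highest in IDH1_R132H tumour 3. Nxph1, a ligand of neurexins, had 29.6 to 93 CPM in tumours (median 53.9), against 35.2 to 40.3 CPM in normal brains and Luzp2, a leucine zipper protein, had 48 to 319 CPM in tumours (median 200), against 168 to 183 CPM in normal brains. Neither passed (edgeR adjusted p = 0.166 and 0.816). Luzp2 had the smallest log2 fold change of the 35, 0.14 with a 95% interval of -0.52 to 0.8, and 3 of its 9 tumours lay below the normal brains.

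Of 5 genes of the committed stage 4 rose, with a median log2 fold change of 1.56. Fyn (chromosome 10, 39368855 to 39565381), a Src family kinase that acts in the start of myelination, stood at 239, 255 and 187 CPM in IDH1_R132H tumours, 126, 236 and 225 CPM in IDH1WT tumours, 81.2, 123 and 200 in PDGFA tumours and 59.2, 64.4 and 72.6 in normal brains. No tumour overlapped the normal brains, and the log2 fold change was 1.47 (SE 0.27, edgeR adjusted p = 0.0173). Enpp6 (chromosome 8, 46986887 to 47096762), a choline phosphodiesterase of newly formed oligodendrocytes, stood at 44.7, 46.4 and 8.09 CPM in IDH1_R132H tumours, 18.2, 32.3 and 49.9 CPM in IDH1WT tumours, 20.9, 25.9 and 28 in PDGFA tumours and 6.47, 5.82 and 7.7 in normal brains. Enpp6 did not follow the precursor genes across libraries, since its lowest tumour was IDH1_R132H 3 and its highest IDH1WT 3, and the log2 fold change was 2.18 (SE 0.47, edgeR adjusted p = 0.0255). Gpr17, a G protein-coupled receptor of committed precursors, had 18.7 to 735 CPM in tumours (median 249), against 22.3 to 25.8 CPM in normal brains (log2 fold change 3.53, SE 0.85, edgeR adjusted p = 0.0352). PDGFA tumour 1 lay below the normal brains and the other 8 tumours above them. Bcas1, a marker of oligodendrocytes that begin to myelinate, had 105 to 327 CPM in tumours (median 225), against 85 to 89.6 CPM in normal brains (log2 fold change 1.24, SE 0.3, edgeR adjusted p = 0.0385). It stood at 225 CPM in PDGFA tumour 1 and was lowest in PDGFA tumour 2, and 12.56% of its exon bases overlap antisense genes. Bmp4, a secreted growth factor of this stage, had 1.01 to 12 CPM in tumours (median 4.76), against 1.58 to 2.19 CPM in normal brains and did not pass (log2 fold change 1.56, SE 0.6, edgeR adjusted p = 0.141). Of 15 genes of BMP signalling outside the 35, 1 rose, Bmp7 (1.91, SE 0.42, edgeR adjusted p = 0.0278), and 1 fell, the antagonist Chrd (-0.68, SE 0.15, 0.0284), with a median log2 fold change of 0.04.

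Of 6 genes of proteins in the cytoplasm 4 rose, with a median log2 fold change of 1.52. Marcksl1 (chromosome 4, 129513581 to 129515985), which binds actin, had the smallest p of the 35 and stood at 89.4, 131 and 164 CPM in IDH1_R132H tumours, 68.7, 145 and 66.1 CPM in IDH1WT tumours, 46.7, 102 and 90.6 in PDGFA tumours and 22.2, 23.3 and 25.1 in normal brains. Its highest tumour was IDH1_R132H 3, and the log2 fold change was 2.06 (SE 0.32, edgeR adjusted p = 0.0125). Sapcd2 (chromosome 2, 25372321 to 25378213) stood at 30.9, 44.7 and 13 CPM in IDH1_R132H tumours, 11.8, 27.1 and 18.9 CPM in IDH1WT tumours, 4.25, 11.4 and 31.5 in PDGFA tumours and 0.924, 1.43 and 1.49 in normal brains. Its counts in normal brains were only 8 to 17 reads, and no tumour overlapped them; the log2 fold change was 4 (SE 0.67, edgeR adjusted p = 0.0157). Cdo1 (chromosome 18, 46713193 to 46728395), the cysteine dioxygenase, stood at 66.4, 87.4 and 49.1 CPM in IDH1_R132H tumours, 31.3, 53.3 and 35.2 CPM in IDH1WT tumours, 14.8, 21.2 and 44.8 in PDGFA tumours and 13.4, 10.9 and 17.7 in normal brains. PDGFA tumour 1 lay between the normal brains, and the log2 fold change was 1.57 (SE 0.33, edgeR adjusted p = 0.0246). Lims2, a focal adhesion adaptor, had 4.56 to 24.1 CPM in tumours (median 8.88), against 4.16 to 4.46 CPM in normal brains (log2 fold change 1.34, SE 0.35, edgeR adjusted p = 0.0473). Lims2 and Gpr17 lie on opposite strands of chromosome 18 and share 188 exon bases, so without a stated strand setting part of their reads cannot be told apart. Kank1, a regulator of cortical actin, had 18.1 to 113 CPM in tumours (median 50), against 18.3 to 20.7 CPM in normal brains and Lnx1, a ubiquitin ligase of Numb, had 13.6 to 26.2 CPM in tumours (median 19.1), against 10.5 to 15 CPM in normal brains. Neither passed, with edgeR adjusted p = 0.0542 for Kank1 and 0.148 for Lnx1. Of the Lnx1 exon bases 12.17% overlap the antisense gene Fip1l1, whose reads cannot be told apart without a stated strand setting.

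**Figure D3:**
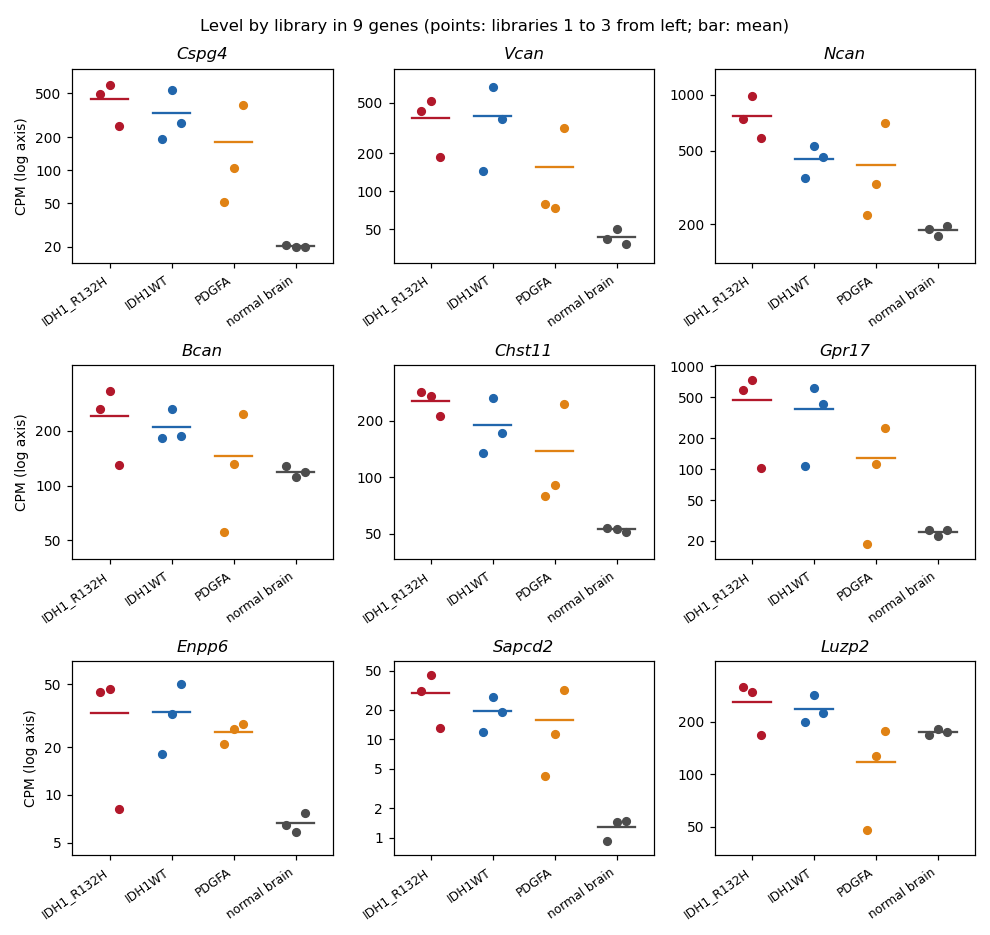
CPM on a log axis (y) in each library of the 4 groups (x) for 9 of the genes, with points for libraries 1 to 3 from left to right and a bar at the group mean. Cspg4, Vcan, Ncan, Chst11, Enpp6 and Sapcd2 show no overlap between tumours and normal brains, while in Bcan, Gpr17 and Luzp2 PDGFA tumour 1 lies below the normal brains.

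The tumours of a group differed widely in these genes. The median of the 35 genes, as a log2 difference from the normal brain mean, was 2.52 in IDH1_R132H tumour 2, 2.42 in IDH1_R132H tumour 1, 2.32 in IDH1WT tumour 2 and 1.91 in PDGFA tumour 3. It was 1.78 in IDH1WT tumour 3, 1.65 in IDH1_R132H tumour 3, 1.29 in IDH1WT tumour 1 and 0.82 in PDGFA tumour 2. In PDGFA tumour 1 it was 0.14, against -0.03 to 0.04 in the normal brains. Over all tested genes that median stayed between -0.02 and 0.01 in each library. PDGFA tumour 1 had 20 of the 35 genes above the highest normal brain and 12 below the lowest, where the other tumours had 32 to 35 above. Of all tested genes 36.4%, 36.5% and 36.2% were above the highest normal brain in IDH1_R132H tumours 1, 2 and 3. IDH1WT tumours 1, 2 and 3 had 30.6%, 38.4% and 35.5%. PDGFA tumours 1, 2 and 3 had 30.8%, 31.9% and 37.9%. PDGFA tumour 1 was the lowest of the 9 tumours in 29 of the 35 genes, and in 23.3% of all tested genes.

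**Figure D4:**
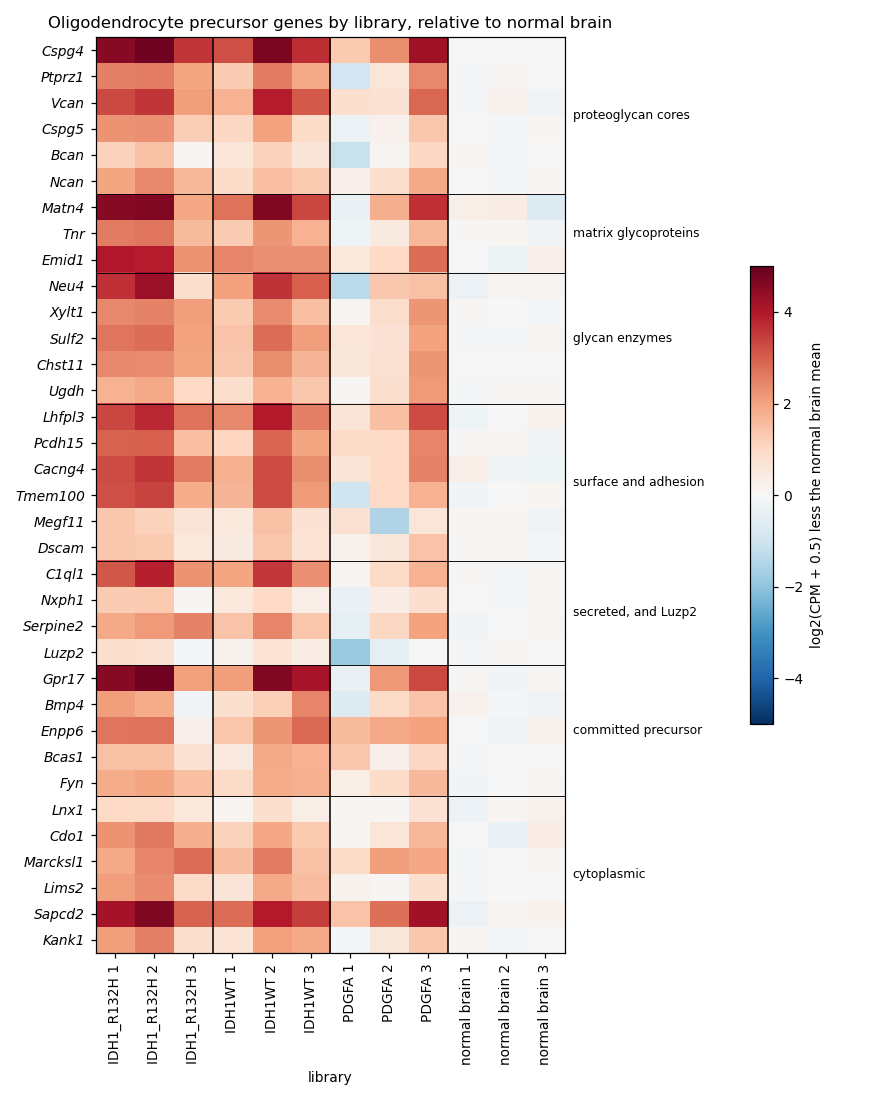
Each cell is log2(CPM + 0.5) less the mean of the 3 normal brains, for the 35 genes (rows, by role) in the 12 libraries (columns, by group). IDH1_R132H tumours 1 and 2, IDH1WT tumour 2 and PDGFA tumour 3 are red throughout most rows, and PDGFA tumour 1 is close to the normal brains in most rows. In PDGFA tumour 1, 20 of the 35 genes lie above the highest normal brain (30.8% of all tested genes) and 12 below the lowest. Those above include Cspg4, Sapcd2, Marcksl1, Pcdh15, Bcas1, Enpp6 and Megf11.

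Marker lists set PDGFA tumour 1 apart as well. The transcription factors of the lineage, a list of 12, summed to 486 CPM in PDGFA tumour 1 and to 827 to 2370 CPM in the other tumours, against 345 to 400 CPM in normal brains. Of the 12, 9 rose in tumours, with a median log2 fold change of 2.39, led by Olig2 (3.37, SE 0.52, edgeR adjusted p = 0.0125), Sox10 (2.91, SE 0.47, 0.0151) and Nkx2-2 (2.54, SE 0.42, 0.0151). Myelinating oligodendrocyte markers, a list of 18, summed to 12000 CPM in PDGFA tumour 1, 6880 in PDGFA tumour 2 and 2640 to 4120 in the other tumours, against 3690 to 3790 CPM in normal brains. In that list 3 genes rose (Gsn, Gjc3 and Ugt8a, with log2 fold changes of 1.32, 1.27 and 0.92) and the median was 0.18. The myelin gene Mbp stood at 5920 CPM in PDGFA tumour 1, against 1680 to 1800 CPM in normal brains. Over all tumours Mbp had edgeR adjusted p = 0.928.

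Astrocyte markers, a list of 15, summed to 1510 CPM in PDGFA tumour 1 and to 4410 to 7740 CPM in the other tumours, against 6260 to 6270 CPM in normal brains. Among those other tumours the sum was lowest in IDH1WT tumour 2 and highest in IDH1_R132H tumour 3, where the medians of the 35 genes were 2.32 and 1.65. The water channel Aqp4 stood at 15.7 CPM in PDGFA tumour 1 and at 121 to 140 CPM in normal brains. In that list 1 gene rose, Gfap (2.2, SE 0.59, edgeR adjusted p = 0.0494), and the median log2 fold change was -0.21. Neuron markers, also 15, summed to 4440 to 10400 CPM in tumours, with PDGFA tumour 1 the highest, against 8890 to 9440 CPM in normal brains. IDH1_R132H tumour 3, at 9830 CPM, also lay above every normal brain, and the rest of the tumours, at 7820 CPM or less, lay below. Of the neuron markers 0 passed, 2 had an unadjusted p under 0.05 and the median was -0.42. Microglia and macrophage markers, 15 genes, summed to 47.4 CPM in PDGFA tumour 1 and 231 to 489 CPM in the other tumours, against 140 to 238 CPM in normal brains. Of these 0 passed, 6 had an unadjusted p under 0.05 and the median was 0.91. Their part in the changes of the precursor genes was not tested.

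Vessel markers bear on Cspg4, Tmem100 and Lims2, which pericytes or endothelium can also express. Endothelial markers, 15 genes, summed to 315 to 525 CPM in tumours and 238 to 277 CPM in normal brains, and 7 rose, among them Vwf (1.62, SE 0.24, edgeR adjusted p = 0.0121), Kdr (1.22, SE 0.2, 0.0151) and Esam (0.88, SE 0.16, 0.0164). Pericyte and mural markers other than Cspg4, 10 genes, summed to 186 to 445 CPM in tumours and 182 to 191 CPM in normal brains. In that list 2 of 10 rose, Rgs5 and Abcc9, with a median log2 fold change of 0.56. Fibroblast markers other than Pdgfra, 9 genes, summed to 70.8 to 408 CPM in tumours and 134 to 196 CPM in normal brains, and 0 of the tested ones passed in edgeR (0 at an unadjusted p under 0.05). Cell cycle genes, 15 in all, summed to 147 to 911 CPM in tumours, lowest in PDGFA tumour 1 and highest in PDGFA tumour 3, against 22.9 to 31.9 CPM in normal brains. Of these 12 rose, and the proliferation gene Mki67 stood at 65.4 CPM in PDGFA tumour 1, against 0.808 to 3.29 CPM in normal brains. None of the cell type markers was at 0 in a tumour library, and in normal brain the monocyte gene Cd14 was at 0 in at least 1 library. The part of vessel and cycling cells in the precursor gene changes was not tested.

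**Figure D5:**
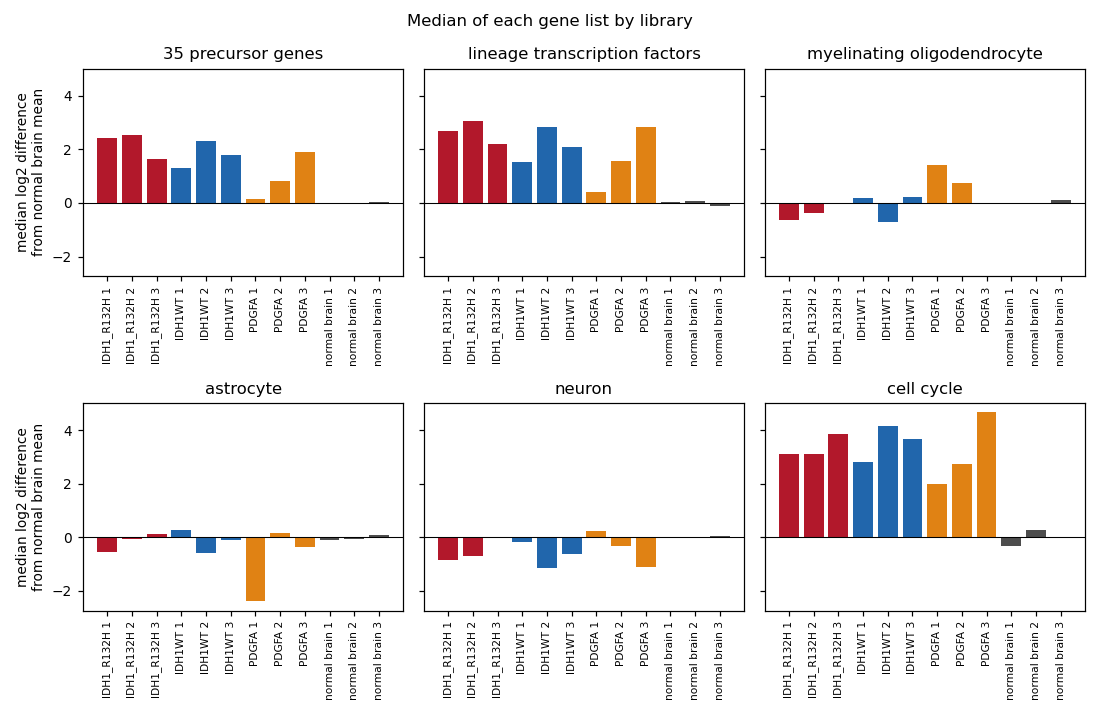
Median log2 difference from the normal brain mean (y axis) in each of the 12 libraries (x axis) for the 35 genes and 5 gene lists. In PDGFA tumour 1 the precursor genes are near 0, the myelinating list is at its highest and the astrocyte list at its lowest, and cell cycle genes are above normal brain in every tumour.

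Each tumour group was then compared with the same 3 normal brains, so these comparisons share their controls. In IDH1_R132H tumours 28 of the 35 genes rose and 0 fell, where 7.17% of all tested genes passed (4.83% higher, 2.35% lower), and the median log2 fold change was 2.32. In IDH1WT tumours 11 rose and 0 fell (1.72% of all tested genes passed, 1.57% higher and 0.152% lower; median 1.85). In IDH1_R132H tumours DESeq2 called 31 of the 35 (2438 of 17794 genes) and limma voom 35 (7320 of 17812). For that group limma on the deposited rlog values called 22 (1021 of 23792), and edgeR with library totals 9 (417 of 17812). DESeq2 called 28 of the 35 in IDH1WT tumours (1272 of 17794 genes) and limma voom 30 (3008 of 17812). There limma on the deposited rlog values called 3 (83 of 23792), and edgeR with library totals 1 (228 of 17812). In PDGFA tumours 0 passed (0.303% of all tested genes passed, 0.258% higher and 0.0449% lower; median 1.17), with 22 of the 35 genes at an unadjusted p under 0.05, as were 1887 of the 17812 tested genes. In PDGFA tumours DESeq2 called 11 of the 35 (484 of 17794 genes), limma voom 6 (436 of 17812) and limma on the rlog values 0. For Cspg4 the log2 fold change stood at 4.46 (SE 0.69, edgeR adjusted p = 0.0128) in IDH1_R132H tumours, 4.03 (SE 0.68, 0.0243) in IDH1WT tumours and 3.16 (SE 0.66, 0.0697) in PDGFA tumours. Emid1 had 3.69 (SE 0.6, 0.0136), 2.44 (SE 0.58, 0.0543) and 1.86 (SE 0.57, 0.217) in the same order of groups. Luzp2 was the gene with a negative value, -0.58 (SE 0.37, edgeR adjusted p = 0.636), in PDGFA tumours, where its other values were 0.57 and 0.43 in IDH1_R132H and IDH1WT tumours.

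Single libraries decided these counts. Without any 1 normal brain 0 of the 35 genes passed in each of the 3 comparisons. At most 1 of all tested genes passed then in IDH1_R132H tumours and in IDH1WT tumours. In IDH1_R132H tumours 0 of the 35 passed without IDH1_R132H tumour 2, where 1 of 18814 tested genes did. In IDH1WT tumours 0 passed without IDH1WT tumour 2 or 3, as did 0 of all tested genes. There 19 passed without IDH1WT tumour 1 (687 of 18799 tested genes) and 20 without IDH1_R132H tumour 3 (327 of 18835). Without PDGFA tumour 1 28 passed (1090 of 18816), and without PDGFA tumour 3 27 passed (1006 of 18781). In PDGFA tumours 13 passed without PDGFA tumour 1 and 1 without IDH1WT tumour 2. Without PDGFA tumour 3 the PDGFA median was 0.575, and 11 of the 35 genes were at an unadjusted p under 0.05. With IDH1_R132H tumour 3 and PDGFA tumour 1 both left out, 34 passed in IDH1_R132H tumours (2167 of 18672 tested genes) and 30 in IDH1WT tumours (1300). In that setting 21 passed in PDGFA tumours, and 32 over all tumours (2928). For these counts in PDGFA tumours the share over all tested genes is not given, so they are not read as particular to the 35 genes. Without PDGFA tumour 1 the calls for all tumours against normal brain rose to 2536 of 18816 tested genes, from 929 of 17812.

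The comparison of the mutant with the wild-type enzyme asked whether precursor genes differed between IDH1_R132H and IDH1WT tumours. In edgeR 0 of the 35 genes passed, as did 0% of all tested genes, and 2 of the 35 had an unadjusted p under 0.05, as had 475 of the 17812 tested genes. DESeq2, limma voom and limma on the rlog values also called 0 of the 35. The difference was positive in 32 of the 35 genes, against 49.3% of all tested genes, with a median of 0.35. That median depends on single libraries: it was 0.157 with 25 positive without IDH1_R132H tumour 2, 0.168 with 27 positive without IDH1WT tumour 1, 0.632 without IDH1_R132H tumour 3 and 0.793 without IDH1WT tumour 2. When libraries were scaled by their totals alone, 26 were positive, while the median of all tested genes moved to -0.3. The largest differences by p were in Emid1, Ncan and Cdo1, whose values in every library are given above. Emid1 was higher by 1.25 (95% interval 0.11 to 2.4, edgeR adjusted p = 1), with IDH1_R132H tumour 3, at 24.5 CPM, below all 3 IDH1WT tumours. Ncan was higher by 0.78 (95% interval 0.02 to 1.53, adjusted p = 1) and was the 1 gene of the 35 in which the 3 IDH1_R132H tumours all lay above the 3 IDH1WT tumours, as in 2.96% of all tested genes. Cdo1 was higher by 0.77 (95% interval -0.03 to 1.56, adjusted p = 1), and its groups overlapped.

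Against PDGFA tumours, 0 of the 35 genes passed in IDH1_R132H tumours (0% of all tested genes), with 17 at an unadjusted p under 0.05, as were 1940 of the 17812 tested genes. DESeq2 called 6 of the 35 (146 of 16068 genes), limma voom 20 (396 of 17812) and limma on the rlog values 0. All 35 differences were positive, against 48.9% of all tested genes, with a median of 1.09, which was 1.77 without PDGFA tumour 3. Myelinating markers differed the other way, with a median of -0.867 and 12 of 18 at an unadjusted p under 0.05 (0 passed in edgeR), and their part was not tested. C1ql1 differed by 2.2 (SE 0.51, edgeR adjusted p = 0.275), Lims2 by 1.61 (SE 0.39, 0.281) and Cdo1 by 1.33 (SE 0.37, 0.315). In these 3 genes and in Cacng4 and Tmem100, 5 in all, the 3 IDH1_R132H tumours lay above the 3 PDGFA tumours, as in 5.86% of all tested genes. Without PDGFA tumour 3 edgeR called 6 of the 35, and without PDGFA tumour 1 it called 0. The counts over all tested genes are not given for these 2 fits, so the 6 are not read as particular to the 35 genes. IDH1WT tumours against PDGFA tumours gave 0 of 35 (0% of all tested genes), 8 at an unadjusted p under 0.05 (1038 of the 17812 tested genes), and 0 by DESeq2, limma voom and limma on the rlog values. All 35 differences were positive there too (48.5% of all tested genes; median 0.7), with C1ql1 at 1.7 (SE 0.5, edgeR adjusted p = 0.808). The median was 0.367 with 28 positive without IDH1WT tumour 2, 0.405 with 30 positive without PDGFA tumour 1 and 1.37 without PDGFA tumour 3. On leaving out 1 library, 1 to 27 of the 35 genes were at an unadjusted p under 0.05, and the matching range over all tested genes is not given. Pericyte markers had a median of 0.905 there, with 7 of 10 at an unadjusted p under 0.05, and myelinating markers -0.713, with 9 of 18; 0 of either passed in edgeR, and their part was not tested. Both comparisons use the same 3 PDGFA tumours, of which PDGFA tumours 1 and 2 had the lowest medians of the 35 genes.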

How the data were processed

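RNA was extracted from formalin-fixed, paraffin-embedded tissue, per the labels' protocols. The submitters' processing notes name GRCm38, the aligner STAR (2.5.2b), the counter featureCounts (1.5.1) from Subread, and DESeq2 (1.16.1). The deposited values used were raw read counts per Ensembl gene, and a deposited table of rlog values, on a log2 scale made by the authors, served as an alternative. The counting's strand setting is not given in the sources used here. Genes were named with GENCODE M21. Counts were filtered with filterByExpr, scaled by TMM and tested by edgeR's quasi-likelihood test (edgeR 4.0.16, R 4.3.3) in 1 fit of all 12 libraries, with Benjamini-Hochberg adjustment over 17812 genes and a threshold of 0.05. Tumours against normal brain is the mean of the 3 tumour groups less normal brain. The members and lists were chosen with earlier results of these data known. Values of every library are given for the 14 members with the smallest p for tumours against normal brain, and for the 3 with the smallest p between the IDH1 groups, and ranges for the rest. Libraries are listed as 1, 2 and 3 within a group, numbered in accession order. On simulated counts for tumours against normal brain (17327 genes run), 46.3%, 92.5% and 89.4% of genes changed by 2-, 4- and 8-fold were called. For IDH1_R132H against IDH1WT (17475 genes run) the shares were 32.8%, 73.1% and 93.9%. Unchanged genes called numbered 15 in the first simulation and 6 in the second. The simulation gave each gene 1 dispersion in all groups, while tumours can vary more than normal brains. Cspg4, for example, had an SD of 194 CPM around 320 in tumours and 0.393 around 20.3 in normal brains. The shares therefore do not measure power in these data.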

Additional observations from a re-analysis of the deposited data

How the results depend on the processing

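No paired analysis was possible because the labels give no replicate numbers shared between groups. For tumours against normal brain, 24 of the 35 genes passed, as did 929 of 17812 tested genes. Counts over all tested genes follow in brackets where given. With library totals alone 2 of the 35 did (273), and leaving out 1 library gave 0 to 30 (0 to 2536). DESeq2 gave 30 (2084 of 17794), limma voom 33 (6005), limma on rlog values 18 (715 of 23792) and edgeR with no filter 33 (2204 of 42503). For IDH1_R132H tumours the count was 28 (1278), with 9 by library totals (417) and 0 to 31 on leaving out 1 library (0 to 2303). DESeq2 gave 31 there (2438 of 17794), limma voom 35 (7320), limma on rlog values 22 (1021 of 23792) and edgeR with no filter 33 (2468 of 42503). For IDH1WT tumours the main count was 11 (307), with 1 by library totals (228) and 31 with no filter (1555 of 42503). DESeq2 gave 28 (1272), limma voom 30 (3008) and limma on rlog values 3 (83 of 23792). Without IDH1_R132H tumour 3 and PDGFA tumour 1 it was 30 (1300), and leaving out 1 library gave 0 to 28 (0 to 1090). For PDGFA tumours it was 0 (54), with 1 by library totals (75) and 26 with no filter (958 of 42503). There it was 11 by DESeq2, 6 by limma voom, 21 without those 2 tumours, and 0 to 13 on leaving out 1 library. For the last 2 settings the counts over all tested genes are not given. Between tumour groups it was 0. With no filter it was 1 for IDH1_R132H against IDH1WT, 22 for IDH1_R132H against PDGFA and 7 for IDH1WT against PDGFA. The counts over all genes are not given for these 3, so they are not read as particular to the 35 genes. Dropping the filter raised the calls over all genes against normal brain too, from 54 to 958 for PDGFA tumours and from 307 to 1555 for IDH1WT tumours. IDH1_R132H against PDGFA also gave 6 by DESeq2, 20 by limma voom and 0 to 6 on leaving out 1 library, where the other 2 pairs gave 0. The log2 fold change of Luzp2 over all tumours ran between -0.00273 without PDGFA tumour 3 and 0.262 without PDGFA tumour 1. The cause of these moves was not tested. Library totals put the median of all genes at -0.188 for IDH1_R132H and 0.102 for IDH1WT tumours against normal brain, and IDH1_R132H tumour 3 has the factor farthest from 1.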
